A study of Mus musculus with 4 samples.

Results

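The intracellular fibroblast growth factor homologous factors are a family of 4 genes, Fgf11, Fgf12, Fgf13 and Fgf14, and were taken as the rows of the deposited table that carry those gene names, 4 of 48178 genes. RNA was sequenced from neurospheres, floating clusters of neural progenitor cells and their progeny, grown from the hippocampus of newborn C57BL/6 mice (postnatal day 0). EGF and FGF-2 were supplied at 20 ng/ml each, and the spheres were harvested on culture day 7. The 2 control libraries came from littermates labelled hGFAPCre+, ROSA26FGF13A +/+, which lack an FGF13A cassette, and the 2 FGF13Aoe libraries from animals labelled hGFAPCre+, ROSA26FGF13A LSL/+, in which 1 ROSA26 allele holds the cassette and LSL stands for a stop sequence that Cre removes. By their labels both groups carry Cre driven from the human GFAP promoter, known for its activity in radial progenitors and astrocytes, so cells outside those lineages would keep the stop. Cells of a mouse were plated into 2 wells, and it is not stated whether replicates are separate animals. P-values therefore measure the spread between these libraries, which may be technical.

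Fibroblast growth factor homologous factors share the fold of the secreted growth factors but have no secretion signal and stay inside the cell. They bind the cytoplasmic tail of voltage-gated sodium channels and set how those channels inactivate, and FGF13 has also been reported to stabilise microtubules in migrating neurons. Alternative first exons are known in the family, so a gene can make several proteins that differ at the amino end. In the annotation used here, however, the complete coding sequences of Fgf11 share their first coding exon. The family is known mainly from neurons; human variants in FGF12 and FGF13 are linked to epilepsy and variants in FGF14 to a spinocerebellar ataxia.

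The libraries held 9724413 to 14092685 reads assigned to genes. Values are normalized read counts, that is, reads per gene divided by a size factor per library, as deposited. Of the libraries, 1 stood apart from its group in Y-linked transcripts: Ddx3y had normalized counts of 4.95 and 146 in control replicates 1 and 2 and was listed at 0 in both FGF13Aoe libraries. The X-inactivation transcript Xist had 18658 and 12206 in control and 30159 and 31301 in FGF13Aoe. Prm1, a sperm protein gene whose intron and polyadenylation segment are used in some transgene cassettes, had 1040 and 722 in control and 9.67 and 10.1 in FGF13Aoe, although the Cre label is the same in both groups. Genotype, sex composition and Prm1 level differed together between the groups, and their parts in any result here cannot be told apart.

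The 4 genes lie on different chromosomes in the GRCm38 assembly, all on the minus strand, and differ greatly in extent. Fgf13 (ENSMUSG00000031137) spans chrX:59062145-59568071 with 9 annotated transcripts, Fgf12 (ENSMUSG00000022523) spans chr16:28160098-28753068 with 6, and Fgf14 (ENSMUSG00000025551) spans chr14:123977907-124677127 with 2. Fgf11 (ENSMUSG00000042826), at chr11:69796068-69801857 with 2 transcripts, covers 5790 bases against 505927 for Fgf13. No annotated exon of another gene overlaps the exons of Fgf11, Fgf12 or Fgf13. Of the exonic bases of Fgf14 5.26% overlap Gm28932, a gene on the opposite strand, and whether counting used strand is not stated in the labels.

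The coding sequences are shown because counts of paralogs can share reads where the genes are alike. Over aligned coding bases Fgf13 was identical to Fgf12 at 67.9%, to Fgf14 at 66.1% and to Fgf11 at 65.4%. The longest run of identical bases between any annotated transcript of Fgf13 and any of the other 3 genes was 14 bases. Among those other 3 genes the longest such run was 28 bases, between Fgf11 and Fgf12. The 60-base coding window in which the 4 genes are most alike holds 37 bases that are the same in all of them, and capitals mark bases that differ from Fgf13.
Fgf13: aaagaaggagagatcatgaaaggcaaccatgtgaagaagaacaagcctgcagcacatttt
Fgf11: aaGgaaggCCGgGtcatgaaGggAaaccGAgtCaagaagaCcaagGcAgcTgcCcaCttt
Fgf12: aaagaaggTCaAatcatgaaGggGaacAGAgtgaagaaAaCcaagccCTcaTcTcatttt
Fgf14: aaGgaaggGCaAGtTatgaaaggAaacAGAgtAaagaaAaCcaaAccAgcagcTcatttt
Even in that window Fgf12 differs from Fgf13 at 14 bases, and Fgf11 and Fgf14 at 16 bases each. No read length was found in the labels.

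The Fgf13 gene has 3 transcripts with a complete coding sequence, of 245, 192 and 187 codons, and each opens with a first coding exon of its own. They are shown because the cassette is named for the A form, while the deposited counts add all forms of the gene together. Capitals mark the start codon, sequences are from GENCODE transcripts on GRCm38, and the exons lie at chrX:59133877-59134063, chrX:59166013-59166040 and chrX:59567140-59567151.
Fgf13, form of 245 codons: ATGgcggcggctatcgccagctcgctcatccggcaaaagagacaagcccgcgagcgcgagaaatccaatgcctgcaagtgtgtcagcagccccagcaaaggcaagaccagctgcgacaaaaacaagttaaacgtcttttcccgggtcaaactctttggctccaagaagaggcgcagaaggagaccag
Fgf13, form of 192 codons: ATGgctttgttaaggaagtcatattcag
Fgf13, form of 187 codons: ATGcttctaagg
The first exon of the 245-codon form is 187 bases long, against 28 and 12 bases in the other two. Counts per gene neither separate these forms nor separate a cassette transcript from that of the endogenous gene, and the labels do not say which bases of Fgf13 the cassette holds.

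The comparison of FGF13Aoe with control neurospheres asked whether the cassette raised Fgf13 and how the other members of the family stood beside it. All 4 genes passed the filter on low values, which asked for 10 normalized counts or more in 2 or more libraries, and all 4 were called by limma at a Benjamini-Hochberg adjusted p under 0.05: Fgf13 and Fgf11 were higher and Fgf12 and Fgf14 lower in FGF13Aoe. Among all 15204 tested genes 35.3% were called, 16.2% higher and 19.1% lower, so a call by itself was common among genes in this comparison. The groups did not overlap in any of the 4 genes, which was also the case in 73.7% of tested genes.

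Fgf13 had normalized counts of 772 and 769 in control replicates 1 and 2 and 5410 and 4447 in FGF13Aoe replicates 1 and 2. Both FGF13Aoe libraries were far above both control libraries, and the ratio between a FGF13Aoe and a control library ran from 5.76 to 7.04 over the 4 possible pairs. The log2 change was 2.67 ± 0.14 (SE, n = 2 per group; 95% interval 2.33 to 3.01; limma adjusted p = 0.00111), the 123rd highest among the tested genes. The ratio of Fgf13 between the 2 control libraries was 1.00. The part of sex in the level of this X-linked gene was not tested. With any one library left out the log2 change stayed between 2.53 and 2.81 and the call held.

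The transcript of the targeted locus rose with Fgf13, while genes around it went both ways. Gt(ROSA)26Sor, the noncoding transcript into which ROSA26 cassettes are inserted, stood at 68.4 and 70.0 in the control libraries against 1005 and 731 with the cassette (log2 change 3.61 ± 0.21, SE, n = 2 per group; limma adjusted p = 0.00111). Setd5, a chromatin regulator gene that lies 32 bases away on the higher-coordinate side, stood at 3057 and 3055 against 8562 and 5058 (log2 change 1.11 ± 0.25; limma adjusted p = 0.0221). The call of Setd5 ended without control replicate 1 (adjusted p = 0.1115) and without control replicate 2 (adjusted p = 0.106). Thumpd3, a gene of the same locus, had 442 and 400 against 307 and 331 and did not pass (log2 change -0.40; limma adjusted p = 0.0793). Rad18, a DNA damage tolerance gene 370742 bases away on the lower-coordinate side, fell from 146 and 181 to 56.8 and 67.8 (log2 change -1.37 ± 0.24; limma adjusted p = 0.0105), a call that ended without either control library (adjusted p = 0.0631 and 0.0986). Lhfpl4 and Srgap3, also near the locus, had log2 changes of -0.17 and -0.16 and were not called.

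Around the endogenous Fgf13 gene no such change was called. Its 4 nearest tested protein-coding neighbours on the X chromosome lie 487885 to 1669109 bases away, and none of these was called. Mcf2, a guanine nucleotide exchange factor gene, stood at 26.7 and 30.1 against 3.62 and 15.2 (log2 change -1.76 ± 0.66; limma adjusted p = 0.085). Rbmx, an RNA-binding protein gene, had 1571 and 1392 against 1132 and 1856 (log2 change -0.03; limma adjusted p = 0.935).

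Fgf11, the member with the shortest gene, rose together with Fgf13 but unevenly. Its normalized counts were 277 and 302 in control replicates 1 and 2 and 1830 and 670 in FGF13Aoe replicates 1 and 2. Both FGF13Aoe libraries were above both control libraries, and FGF13Aoe replicate 1 was 2.73-fold above replicate 2, a gap that was larger in only 3.31% of tested genes. The log2 change was 1.93 ± 0.44 (SE, n = 2 per group; 95% interval 0.84 to 3.03; limma adjusted p = 0.0225). Without FGF13Aoe replicate 1 it was 1.21 and without FGF13Aoe replicate 2 it was 2.66. In those fits the spread came from the control libraries alone, so the gap between the FGF13Aoe replicates did not enter it. They therefore cannot show whether the call survives that gap. The call ended without control replicate 1 (log2 change 1.87, adjusted p = 0.0965), without control replicate 2 (1.99, adjusted p = 0.0788), and in edgeR's quasi-likelihood test on the reads of 3 libraries, also without control replicate 1 (2.07, adjusted p = 0.0908). In the same edgeR test on all 4 libraries it held (2.12, adjusted p = 0.0181).

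The neighbours of Fgf11 on chromosome 11 moved less. Chrnb1, a subunit gene of the muscle acetylcholine receptor, lies 125 bases from Fgf11 and stood at 34.7 and 46.4 against 101 and 38.5 (log2 change 0.63 ± 0.50; limma adjusted p = 0.359). Tmem102 on the other side, at 1746 bases, had 11.9 and 15.5 against 13.3 and 13.2 (log2 change -0.03; limma adjusted p = 0.955). Nlgn2, which encodes an adhesion protein of inhibitory synapses, rose from 2467 and 2374 to 3439 and 3186 (log2 change 0.45; limma adjusted p = 0.0312), and its call ended without either control library (adjusted p = 0.198 and 0.2375). Zbtb4 had a log2 change of 0.12 (limma adjusted p = 0.607).

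Fgf12 fell. Its normalized counts were 345 and 298 in control replicates 1 and 2 and 93.0 and 113 in FGF13Aoe replicates 1 and 2. Both control libraries were 2.63-fold to 3.71-fold above the FGF13Aoe libraries, and the replicates of a group differed by 1.16-fold and 1.22-fold. The log2 change was -1.63 ± 0.20 (SE, n = 2 per group; 95% interval -2.13 to -1.14; limma adjusted p = 0.00406), and the call held with any one library left out, at adjusted p of up to 0.0491.

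Fgf14, the member with the lowest level per kilobase in every library, fell to a similar degree. Its normalized counts were 121 and 110 in control replicates 1 and 2 and 33.8 and 43.5 in FGF13Aoe replicates 1 and 2, so the groups were separated by at least 2.52-fold. The log2 change was -1.56 ± 0.27 (SE, n = 2 per group; 95% interval -2.22 to -0.90; limma adjusted p = 0.00971). The call ended without control replicate 1 (log2 change -1.49, adjusted p = 0.0886), without control replicate 2 (-1.63, adjusted p = 0.0681), and in edgeR's test without control replicate 1 (-1.48, adjusted p = 0.0741), and it held in edgeR's test on all 4 libraries (-1.56, adjusted p = 0.00982). Gm28932, which shares bases with Fgf14 on the other strand, did not reach the filter on low values.

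**Figure D1:**
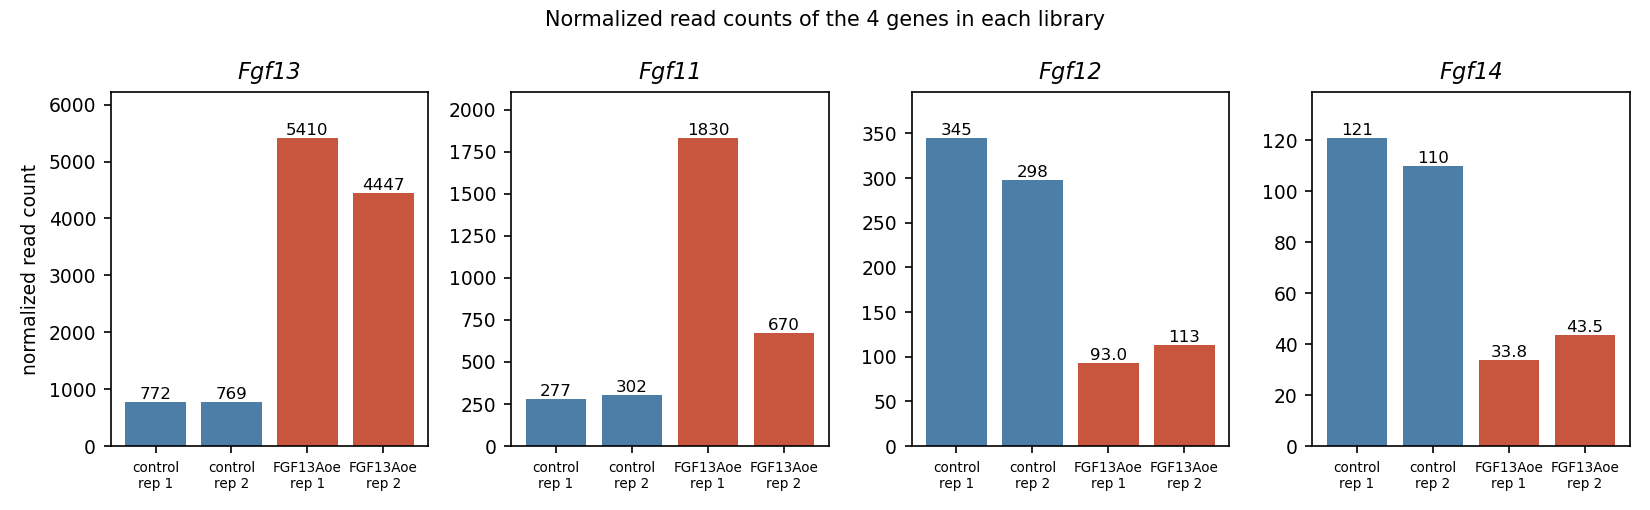
Normalized read count of Fgf13, Fgf11, Fgf12 and Fgf14 (vertical axes from 0, one scale per gene) in each of the 4 libraries, control in blue and FGF13Aoe in red. Each bar is 1 library with its value above it; Fgf13 stands at 5410 and 4447 in FGF13Aoe against 772 and 769 in control, Fgf11 is higher with unequal replicates, and Fgf12 and Fgf14 are lower.

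**Figure D2:**
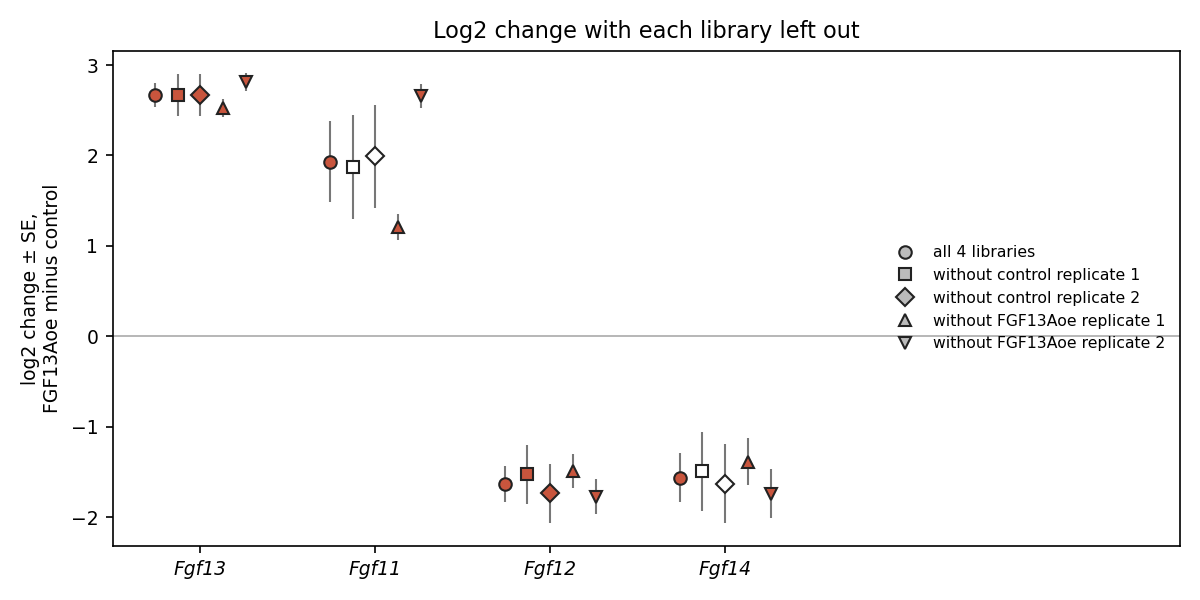
Log2 change (FGF13Aoe minus control, with SE bars) of each gene with all 4 libraries and with each library left out. Filled symbols have a limma adjusted p under 0.05 and open symbols do not; Fgf13 and Fgf12 stay filled throughout, Fgf11 and Fgf14 are open when either control library is left out, and Fgf11 runs from 1.21 to 2.66.

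Levels of the 4 genes were compared per kilobase of the union of annotated exons, which is 4019 bases for Fgf13, 3044 for Fgf11, 6203 for Fgf12 and 4182 for Fgf14. In FGF13Aoe the Fgf13 counts may include cassette transcript, whose length the labels do not give. Levels, sums, shares and ratios that involve Fgf13 in FGF13Aoe may therefore not be on the scale of control. In control neurospheres Fgf13 stood highest at 192 and 191 normalized counts per kilobase, followed by Fgf11 at 91.1 and 99.2, Fgf12 at 55.6 and 48.0 and Fgf14 at 28.9 and 26.3. Neighbours in that order did not overlap between the libraries of the group. In FGF13Aoe the order was the same in both libraries, with Fgf13 at 1346 and 1107 per kilobase, Fgf11 at 601 and 220, Fgf12 at 15.0 and 18.3 and Fgf14 at 8.09 and 10.4. The order of Fgf11 and Fgf12 rests on the length correction: without it their counts were 277 against 345 in control replicate 1 and 302 against 298 in control replicate 2.

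Within the family the shares stood further apart in FGF13Aoe than in control. Fgf13 made up 52.3% ± 0.2 (SD, n = 2) of the summed level per kilobase in control and 75.0% ± 9.4 (SD, n = 2) in FGF13Aoe, where the 2 libraries stood at 68.3% and 81.6%. Fgf12 made up 14.1% ± 1.4 (SD, n = 2) of the sum in control and 1.05% ± 0.42 (SD, n = 2) in FGF13Aoe. For Fgf14 the shares were 7.53% ± 0.47 (SD, n = 2) and 0.589% ± 0.253 (SD, n = 2). These 3 shares did not overlap between groups, and the exact permutation test gave p = 0.333 for each, two-sided, the smallest it can give with 2 libraries per group. Normalized counts did not overlap between groups in 73.7% of all tested genes. The shares are parts of the same sum and so are not separate results. Fgf11 held 24.8% and 27.2% in control and 30.5% and 16.2% in FGF13Aoe, so its share overlapped between the groups (exact permutation p = 1) although its level rose.

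The summed level of the 4 genes was 368 and 365 per kilobase in control and 1971 and 1355 in FGF13Aoe. Fgf13 exceeded Fgf12 per kilobase 3.45-fold and 3.99-fold in the control libraries and 89.8-fold and 60.6-fold in the FGF13Aoe libraries. By contrast the ratio of Fgf12 to Fgf14 per kilobase was 1.92 and 1.83 in control and 1.85 and 1.76 in FGF13Aoe, so both fell while the ratio between them stayed within a narrow range over the 4 libraries. Fgf12 and Fgf14 together had 84.5 and 74.3 per kilobase in control and 23.1 and 28.7 in FGF13Aoe.

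**Figure D3:**
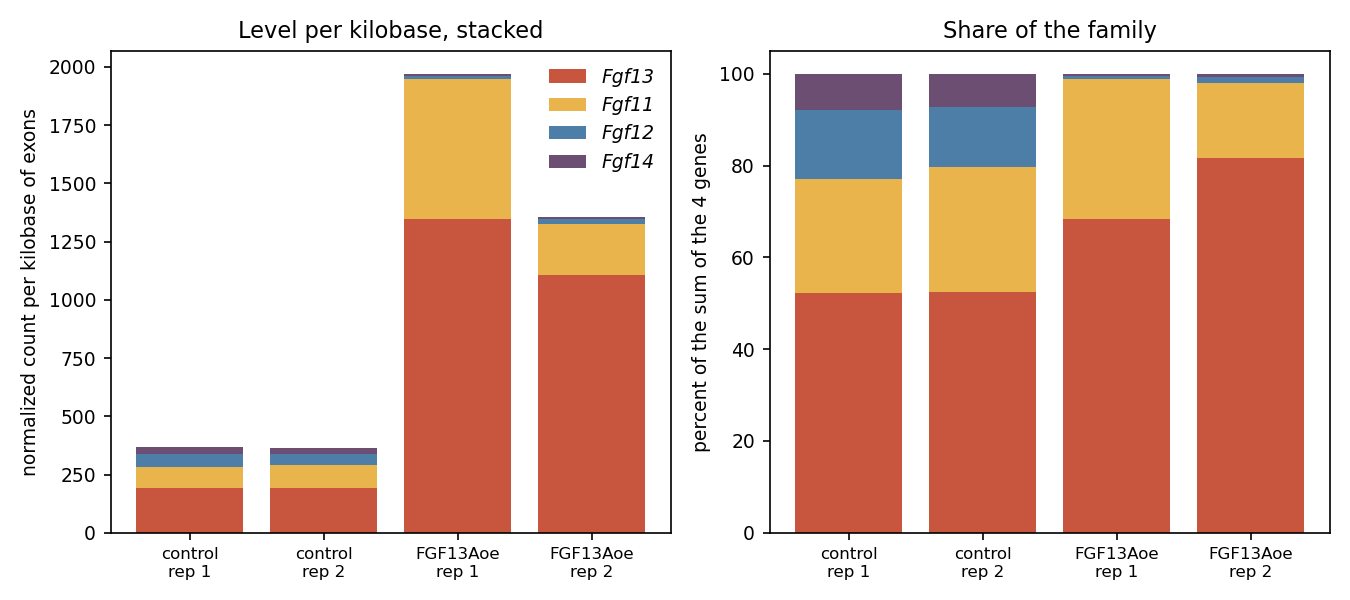
Left, normalized count per kilobase of exons of the 4 genes stacked for each library; right, the same as percent of the sum of the 4 genes. Each bar is 1 library; the sum is 368 and 365 in control and 1971 and 1355 in FGF13Aoe, and Fgf13 makes up 52.2% and 52.5% in control and 68.3% and 81.6% in FGF13Aoe.

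Promoters of the 3 genes that the cassette does not name are shown because Fgf12 and Fgf14 fell together while Fgf11 rose. Each is 250 bases before to 50 bases after a RefSeq gene start on GRCm38.p6, minus strand. RefSeq lists 4 starts for Fgf12, and the one nearest upstream of the first coding exon of its 243-codon transcript is shown. Capitals mark the motifs searched on both strands, which were ACGTG, the core of the hypoxia response element, CAGCTG, an E-box bound by neurogenic helix-loop-helix factors, and GGGCGG, the GC box. These motifs do not overlap in the windows shown.
Fgf11 (chr11:69802231-69802530): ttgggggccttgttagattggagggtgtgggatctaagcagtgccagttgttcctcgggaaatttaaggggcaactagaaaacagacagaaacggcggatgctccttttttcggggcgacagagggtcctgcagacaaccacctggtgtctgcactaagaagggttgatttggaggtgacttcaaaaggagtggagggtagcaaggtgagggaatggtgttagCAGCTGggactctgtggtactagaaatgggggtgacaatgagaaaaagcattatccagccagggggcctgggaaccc
Fgf12 (chr16:28446026-28446325): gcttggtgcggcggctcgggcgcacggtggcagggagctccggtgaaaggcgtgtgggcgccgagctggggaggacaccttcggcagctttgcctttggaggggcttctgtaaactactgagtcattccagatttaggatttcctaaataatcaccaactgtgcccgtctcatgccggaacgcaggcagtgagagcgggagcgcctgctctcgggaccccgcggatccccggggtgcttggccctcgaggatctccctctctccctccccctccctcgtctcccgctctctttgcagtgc
Fgf14 (chr14:124192497-124192796): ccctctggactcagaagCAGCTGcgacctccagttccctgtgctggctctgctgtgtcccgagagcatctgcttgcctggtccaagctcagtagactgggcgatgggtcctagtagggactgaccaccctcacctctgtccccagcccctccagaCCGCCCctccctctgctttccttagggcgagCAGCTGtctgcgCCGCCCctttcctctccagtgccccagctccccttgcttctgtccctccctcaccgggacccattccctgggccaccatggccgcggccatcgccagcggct
CAGCTG occurred 1 time in the Fgf11 window, 0 times in that of Fgf12 and 2 times in that of Fgf14, against 16.3% of 32851 promoters of the same length that hold it. GGGCGG occurred 2 times in the Fgf14 window and in neither of the others shown (35.7% of all promoters hold it), but it occurred 2 times at each of the other 3 Fgf12 starts. ACGTG occurred in none of the windows shown (19.6% of all promoters hold it). CG dinucleotides numbered 5, 22 and 12 in Fgf11, Fgf12 and Fgf14, against a median of 7 over all promoters. Whether Fgf12 shares GGGCGG with Fgf14 thus depends on the start chosen, and the counts per gene do not say which start was used. The Fgf11 window lies wholly beyond the GENCODE span of Fgf11, which ends at 69801857, so it does not hold the start of the GENCODE transcripts. No window is shown for the Fgf14 form of 252 codons, whose first coding exon lies at chr14:124676510-124676717.

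Genes whose products work with the family were read from lists. Of 9 genes for sodium channel alpha subunits, the pores that these factors bind, 5 passed the filter, 4 fell and 0 rose, with a median log2 change of -2.20. Over all tested genes 19.1% were called lower and the median was -0.01. Scn2a, a main pore of early axons, fell from 1002 and 910 to 155 and 172 (log2 change -2.54 ± 0.15; limma adjusted p = 0.00111), and Scn3a, abundant in the fetal brain, from 493 and 346 to 87.0 and 102 (-2.12 ± 0.23; limma adjusted p = 0.00308). Scn1a, a main pore of inhibitory interneurons, fell from 185 and 187 to 55.6 and 28.3 (-2.20 ± 0.36; limma adjusted p = 0.00833), a call that ended without control replicate 1 (adjusted p = 0.0594) and without control replicate 2 (0.0544). With either control library left out 2 of the 5 genes were called lower. Scn8a, which encodes the channel of mature axon initial segments and nodes, stood at 1163 and 1071 against 1527 and 1402 (log2 change 0.39 ± 0.12) and did not pass, at a limma adjusted p of 0.0505. It passed as higher under 6 of the alternatives tried, TMM scaling, median centring and edgeR on all 4 libraries among them.

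Of 6 other reported partners, all tested, 2 fell and 0 rose, with a median log2 change of -0.44. Over all tested genes 19.1% were called lower and 35.3% in either direction. With only 6 genes, that count is not set apart from the background. The scaffold genes Mapk8ip1 and Mapk8ip2, whose islet-brain proteins bind these factors, had log2 changes of -0.30 and -0.57 and did not pass (limma adjusted p = 0.108 and 0.102). Cacna1c, the pore of an L-type calcium channel, fell from 1034 and 692 to 283 and 335 (-1.46 ± 0.22; limma adjusted p = 0.00692). Jph2, which encodes a membrane-junction protein, had 13.9 and 28.5 against 4.83 and 2.02 (-2.32 ± 0.60; limma adjusted p = 0.0318), a call that ended without control replicate 1 (adjusted p = 0.0704), control replicate 2 (0.1722) or FGF13Aoe replicate 2 (0.0679).

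Genes of the axon initial segment, where sodium channels and these factors gather, went both ways. Of 9 tested 5 fell and 1 rose, with a median log2 change of -2.19, where 19.1% of all tested genes fell and 16.2% rose. Ank3, which encodes the master scaffold ankyrin-G, fell from 5267 and 4780 to 1286 and 898 (-2.22 ± 0.19; limma adjusted p = 0.0018). Sptbn4, Cntn2 and Cntnap2 fell, with log2 changes of -2.19, -3.80 and -2.69. Nfasc, the adhesion protein neurofascin, rose from 2914 and 2986 to 5379 and 4714 (0.77 ± 0.13; limma adjusted p = 0.00886), a call that ended without control replicate 1 (adjusted p = 0.0998) and without control replicate 2 (0.085). Nrcam, Kcnq3 and Trim46 had log2 changes of -0.04, 0.21 and -0.30 and did not pass.

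Markers of neurons moved with Fgf12 and Fgf14. Of 10 neuron markers, all tested, 8 fell and 0 rose, against 19.1% of all tested genes that fell. Their median log2 change was -2.65, and their summed normalized count was 41623 and 32725 in control and 10786 and 13838 in FGF13Aoe. The growth cone gene Gap43 and the neuronal nuclear marker gene Rbfox3 fell, with log2 changes of -2.58 and -1.74, beside -1.63 for Fgf12 and -1.56 for Fgf14. By contrast Map2 and Elavl4 had log2 changes of -0.40 and -0.55 and did not pass (limma adjusted p = 0.182 and 0.104). None of the 10 was at 0. In bulk RNA fewer neurons and less RNA of a gene per neuron cannot be told apart, and the part of the neuron share in the fall of Fgf12 and Fgf14 was not tested.

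Astrocyte markers were higher beside Fgf13 and Fgf11, and those of the oligodendrocyte lineage were split. Of 10 astrocyte markers 6 rose and 0 fell, against 16.2% of all tested genes that rose, with a median log2 change of 1.01 and sums of 97984 and 69883 in control against 278778 and 268670 in FGF13Aoe. Without control replicate 2, 3 astrocyte markers were called higher. Of 10 oligodendrocyte lineage markers 5 rose and 0 fell, where 16.2% of all tested genes rose and 19.1% fell. Their median was 1.68, with sums of 23185 and 28426 against 44009 and 49821. The count called lower was larger without FGF13Aoe replicate 2. The myelin gene Mbp rose, with a log2 change of 3.24 (limma adjusted p = 0.00501), whereas the myelin gene Mog had -1.39 and the lineage factor genes Olig1 and Olig2 had -0.87 and -0.35 and did not pass (limma adjusted p = 0.0812, 0.0601 and 0.198). The authors' test and the replicate block each called 1 of the 10 lower. Of 10 neural progenitor markers 6 rose and 2 fell, Nes and Tnc, where 16.2% of all tested genes rose and 19.1% fell. The count that fell is thus near the background. The progenitor markers had a median of 1.02 and sums of 82728 and 91075 against 62995 and 77261. The cell type given in the labels was accompanied by markers of neurons and glia in all 4 libraries. Between FGF13Aoe replicates 1 and 2, where Fgf11 stood at 1830 and 670, the astrocyte markers leaned both ways, with Gfap at 111437 and 135769, Apoe at 93708 and 65711 and Sox9 at 3877 and 2842. The part of these cell types in the rise of Fgf11 was not tested.

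Markers of other cell types were also read. Of 8 microglia markers 5 were tested, 3 fell and 0 rose, with sums of 272 and 141 in control against 49.5 and 55.7 in FGF13Aoe. Of 6 markers of mural cells and fibroblasts 5 were tested and 3 fell, with sums of 745 and 580 against 283 and 214, and of 6 endothelial markers 3 were tested and none was called, with sums of 197 and 165 against 246 and 130. The ependymal markers summed to 570 and 643 against 574 and 437, most of it Foxj1, with 1 of 3 called lower, and Tmem212 was at 0 throughout. Over all tested genes 19.1% were called lower, and few genes of these lists were tested. Without control replicate 1 fewer genes were called lower in the microglia, the mural and fibroblast, and the ependymal lists. The microglia count was also smaller without any other single library, and the ependymal count without control replicate 2. The hemoglobin genes Hba-a1 and Hbb-bs were at 0 in all libraries, and the blood markers summed to 0 and 4.07 in control against 3.62 and 5.06 in FGF13Aoe.

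**Figure D4:**
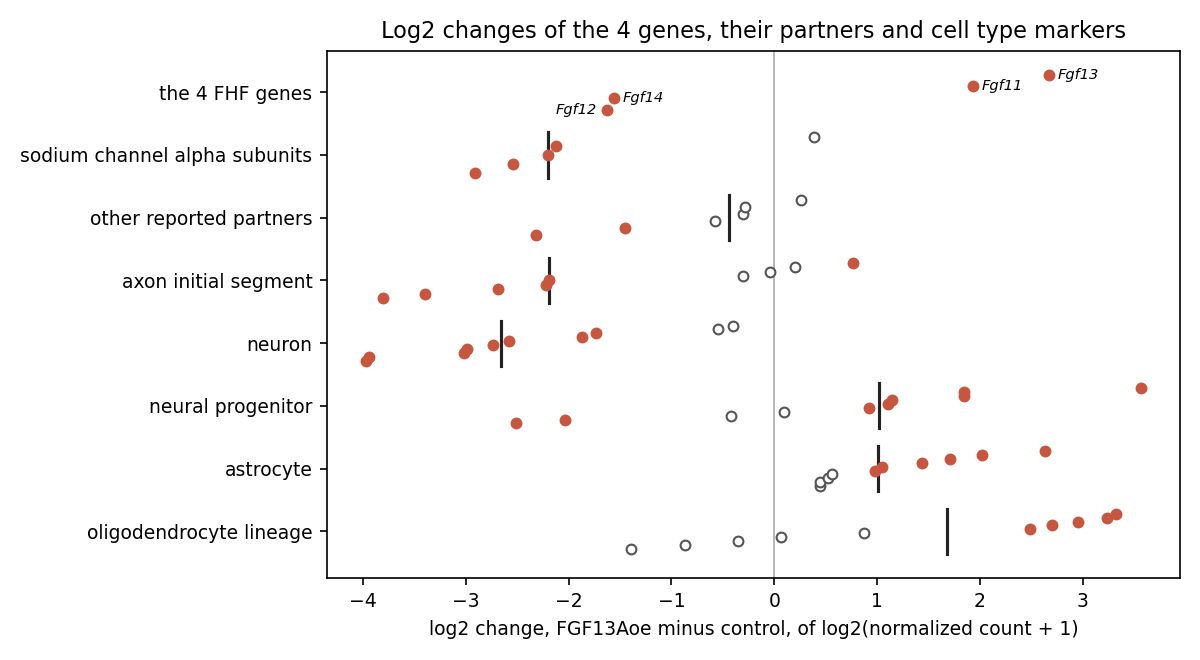
Log2 change (FGF13Aoe minus control, on the scale of log2(normalized count + 1)) of the 4 homologous factor genes, named, and of each tested member of the partner and cell type lists, 1 point per gene. Filled points have a limma adjusted p under 0.05, open points do not, and vertical bars are list medians, -2.20 for sodium channel alpha subunits, -2.65 for neuron markers and 1.01 for astrocyte markers.

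For each gene the transcripts with the most similar profile over the 4 libraries were named by the distance between log2 values centred on each gene's mean, among tested genes with a mean count of at least 50. Nearest to Fgf13 were Pdgfrl, Col9a2 and Ypel4, at distances of 0.03, 0.16 and 0.23 log2 units. Pdgfrl had 44.6 and 44.7 in control and 317 and 255 in FGF13Aoe. Nearest to Fgf11 were H2-Ab1, Osmr and Tgif1, at 0.13, 0.14 and 0.18; each was also higher in FGF13Aoe replicate 1 than in replicate 2, as in Osmr, a cytokine receptor subunit gene, with 140 and 167 against 1005 and 388. Nearest to Fgf12 were Camk2n2, an inhibitor of a calcium-dependent kinase, the stathmin gene Stmn3 and the ribosome biogenesis gene Rrp12, at 0.06, 0.09 and 0.10. Nearest to Fgf14 were Slc25a29, Rrp12 and Smpd3, at 0.03, 0.06 and 0.06, so Rrp12 was named for both genes that fell. With 4 libraries such distances describe these profiles only.

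The genes beside Fgf12 and Fgf14 were read in the same way. Beside Fgf12, Ccdc50 rose from 1284 and 1220 to 1845 and 1766 (log2 change 0.53; limma adjusted p = 0.0174), a call that ended without control replicate 1 (adjusted p = 0.1292) and replicate 2 (0.1633), while Mb21d2, Hrasls and Il1rap were not called. Beside Fgf14, Itgbl1 lies 2289 bases away and fell from 85.2 and 66.7 to 2.42 and 11.1 (log2 change -3.57 ± 0.65; limma adjusted p = 0.0112), a call that ended without control replicate 1 (adjusted p = 0.0704) and replicate 2 (0.0523). Nalcn, a sodium leak channel gene at 350763 bases, had 300.2 and 295 against 205 and 280 (log2 change -0.31; limma adjusted p = 0.264). Over the 14 neighbours of the 4 genes, which do not include those of the ROSA26 locus, 2 were called higher and 1 lower, against 35.3% of all tested genes called in either direction.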

How the data were processed

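NEBNext Ultra libraries were made from Trizol RNA, per the labels' protocols. STAR, DESeq2 and mm10 are named, without versions, in the submitters' processing notes; the annotation release is not given in the sources used here, nor is use of strand. Deposited values are, per gene, a normalized read signal in each library and the authors' log2 fold change with standard error, test score and p-values. All deposited values of a library (100%, tolerance 1e-06) were multiples of 1 step. Dividing by it gave reads. The planned count test left out control replicate 1, whose step (0.991) was nearest to 1; the same test on all 4 libraries was added after seeing the data.

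Samples were grouped by title. Genes with a value of at least 10 in at least 2 libraries were compared with limma 3.58.1 (R 4.3.3), two-sided, with an intensity trend and no replicate block, on log2(value + 1), which understates the change of low genes. P-values were adjusted over all 15204 tested genes by Benjamini-Hochberg, threshold 0.05. With 1 library left in a group, it was assumed to vary like the other group. Alternatives were other pseudocounts, filters and scalings, no trend, the authors' test, edgeR 4.0.16 on 3 and on 4 libraries, a block for the replicate number, and each library left out in turn. Loci, lengths and coding sequences came from GENCODE M21 (GRCm38, the assembly mm10 names), promoters from RefSeq. Named genes were the 4 members, genes of the lists and neighbours, and the 3 nearest profiles of each member; predicted genes were skipped there. Members and lists were chosen with earlier results of these data known. Figures were drawn with matplotlib 3.10.9. Some genes of the lists and neighbours are counted but not reported here by name.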

Additional observations from a re-analysis of the deposited data

How the results depend on the processing

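Directions of Fgf13, Fgf11, Fgf12 and Fgf14 held under all 16 alternatives tried. Calls of Fgf13 and Fgf12 held under all 16. The call of Fgf14 ended under 3, edgeR on 3 libraries, which lacks control replicate 1 (-1.48 on the log2 scale, adjusted p = 0.0741), and the removal of either control library; over single libraries removed its log2 change ran from -1.74 to -1.38. The call of Fgf11 ended under 4, without an intensity trend (log2 change 1.93, adjusted p = 0.0635), in edgeR without control replicate 1 (2.07, adjusted p = 0.0908) and without either control library, with log2 changes from 1.21 to 2.66 over single libraries removed. Without control replicate 1 edgeR called 537 genes higher and 1086 lower, against 2467 and 2906 by limma. On all 4 libraries, an alternative chosen after seeing the data, edgeR called 2564 higher and 2833 lower and called all 4 genes. With single libraries removed, the counts ran from 551 to 2822 higher and from 867 to 3447 lower. Fgf13 made up 60.1% of the family in control by the length of the longest transcript and 51.5% without length, against 52.3%. With the replicate block 2049 genes were called higher and 2647 lower, and the adjusted p was 0.0012 for Fgf13, 0.014 for Fgf11, 0.00712 for Fgf12 and 0.0175 for Fgf14, so no call of these 4 changed. Deviations of same-numbered libraries correlated at -0.10, so the numbers were not taken as pairs; with crossed numbers, chosen after seeing the data, 2816 and 3257 genes were called. Of 65 other named genes with a call, 23 and 21 lost it without control replicates 1 and 2, and 2 and 4 without FGF13Aoe replicates 1 and 2. Without a control library the spread came from the FGF13Aoe replicates alone, and without an FGF13Aoe library from the control replicates alone. Over tested genes the SD of the log2 difference between replicates was 0.43 in control and 0.59 in FGF13Aoe. Depth limits the precision of genes with low counts, such as Fgf14 at 33.8 and 43.5 in FGF13Aoe. The cause of these differences was not tested.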
